A study of Mus musculus with 12 samples.

Results

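The chromatin of 10 mouse genes that release, re-esterify and oxidise arachidonate was described in intestinal organoids with and without added arachidonic acid (AA). The genes were Pla2g4a, Pla2g6, Acsl4, Lpcat3, Mboat7, Alox5, Alox5ap, Alox12, Alox15 and Lta4h, of 21900 protein-coding genes in the RefSeq table used. Every peak that overlapped the mm10 span of one of these genes, extended by 1 kb on each side, was taken. By the peak caller SEACR there were 25 such peaks of 58548 for H3K4me3, 27 of 62547 for H3K27ac and 50 of 105301 for H3K27me3. The genes were named by function, with earlier results of these data known when they were chosen.

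The organoids are cultures of intestinal epithelium grown from isolated mouse crypts in Matrigel, in medium that held EGF, Noggin, R-spondin and the GSK3 inhibitor CHIR-99021 in both groups. One group received vehicle and the other 25 µM AA, for 6 days. CUT&RUN, an assay in which an antibody-tethered nuclease frees the DNA around a histone mark, was done in duplicate per group for 3 marks, which gave 12 libraries, 4 a mark. No genotype is named in the labels of these libraries, whereas the series as a whole is described as using Ptger KO organoids, so the genotype is not stated here. Nothing in the labels tells whether duplicates are separate cultures or mice. The p-values therefore measure only the spread between duplicates, pooled over peaks, and it may be technical.

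Cytosolic phospholipase A2 frees arachidonate from membrane phospholipids. Acyl-CoA synthetases and lysophospholipid acyltransferases put it back, and so set how much free acid the cell holds. Free arachidonate is also the substrate of the lipoxygenases, which make hydroperoxy fatty acids and leukotrienes. In the gut, leukotrienes are best known from leukocytes and from tuft cells, the chemosensory cells of the epithelium. H3K4me3 marks gene starts in use or poised for use, H3K27ac marks active starts and enhancers, and H3K27me3 is the mark of Polycomb repressive complex 2.

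The peak score is the coverage per base of a peak, scaled by 1 factor per library. The median SEACR peak held 1.19 to 3.38 fragments per base over the 12 libraries, and for H3K4me3 the vehicle libraries (3.38 and 2.35) were deeper than the AA libraries (1.37 and 1.46). Across peaks, which are not independent replicates, Spearman's rho within the vehicle pair was 0.81 in H3K4me3, 0.51 in H3K27ac and 0.19 in H3K27me3. Within the AA pair it was 0.72, 0.65 and 0.29. In H3K4me3, AA replicate 2 was far from the rest: its first principal component was 157.7, and that of the other 3 libraries ran from -74.1 to -13.5. Changes are AA minus vehicle on the log2(score + pseudocount) scale with their SE, and a peak was called at a limma adjusted p under 0.05 over all SEACR peaks of its mark. The fit takes the spread largely from all peaks of like score, so the SE of a peak says little about its own duplicates. A scale fixed per library moves these changes: centring each library on its median took the median change over all peaks from -0.19 to 0.02 for H3K4me3, from 0.11 to 0.03 for H3K27ac and from 0.12 to 0.01 for H3K27me3. With it, the called H3K4me3 peaks went from 904 higher and 806 lower to 5557 and 549, and the called H3K27me3 peaks from 524 and 50 to 47 and 32.

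The 10 genes differed in the marks they carried, as read from 1 set of peaks per mark for vehicle and AA together. The release and re-esterification genes and Lta4h, 6 genes, each had H3K4me3 and H3K27ac peaks at an annotated start. Lta4h acts in leukotriene synthesis, so this grouping follows the marks rather than function and is a description only. Of these 6, H3K27me3 peaks were found at X-linked Acsl4, with 25, and at Lpcat3, with 1 weak peak. The lipoxygenase genes and Alox5ap each had H3K27me3 peaks, 24 in all over 4 genes. Of these 4, an H3K4me3 start peak was found at Alox12 and none at Alox5. The starts of Alox5ap and Alox15 were not known, so an H3K4me3 start peak could not be looked for there. Alox15 had 2 H3K4me3 peaks inside its span. H3K27me3 peaks covered 66.3% of the extended span of Alox12, 54.3% of Alox15, 36.4% of Alox5ap and 22.7% of Alox5. They covered 63.1% of Acsl4, 2.68% of Lpcat3 and 0% of Pla2g4a, Pla2g6, Mboat7 and Lta4h. Among all protein-coding genes, 49.3% on the autosomes and 78.0% on the X chromosome had an H3K27me3 peak. More than 50% of the span lay in such peaks at 6.49% of autosomal genes and at 43.0% of X-linked genes. The share in Acsl4 thus stands beside an X chromosome whose median gene had 40.0%, and the autosomal median was 0. A bulk library cannot tell a mark in fewer cells from less of the mark per cell.

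**Figure D1:**
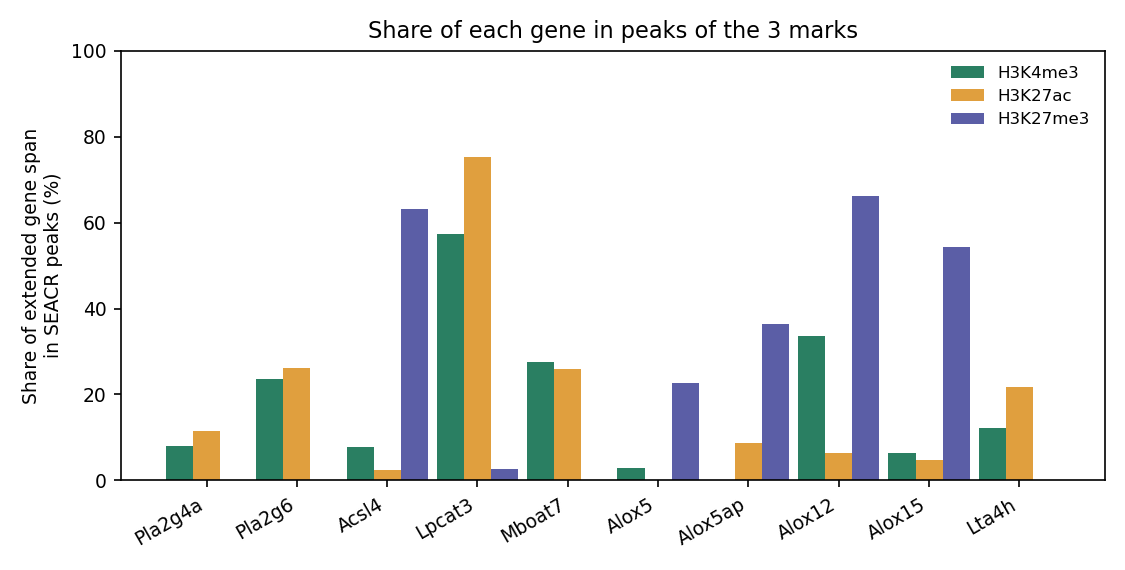
Share of each gene's span, extended by 1 kb, that lay in SEACR peaks of H3K4me3, H3K27ac and H3K27me3 (percent, bars from 0; 1 peak set per mark for all 4 libraries). H3K27me3 covered more than 50% of Acsl4, Alox12 and Alox15 and 0% of Pla2g4a, Pla2g6, Mboat7 and Lta4h.

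The sequences upstream of 4 starts are given as examples. Mboat7 is shown because its start peak was the one called between AA and vehicle. The other three were chosen after their values were seen: Lta4h had the strongest H3K4me3 start peak of the 10 genes, Alox5 had H3K27me3 and no H3K4me3 at its start, and Alox12 had both marks there. The bases are the 250 before the annotated start, 5′ to 3′ in the direction of transcription, from RefSeq on GRCm38.p6 (mm10). Mboat7 is given for 100 bases, where the start of its divergent neighbour Tsen34 begins. Capitals mark CG dinucleotides, the target of DNA methylation and the base of CpG islands. The windows are chr7:3692987-3693086 on the minus strand for Mboat7, chr10:93453146-93453395 on the plus strand for Lta4h, chr6:116461179-116461428 on the minus strand for Alox5 and chr11:70255371-70255620 on the minus strand for Alox12.
Mboat7: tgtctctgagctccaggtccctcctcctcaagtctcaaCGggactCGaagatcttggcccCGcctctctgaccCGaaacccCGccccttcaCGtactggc
Lta4h: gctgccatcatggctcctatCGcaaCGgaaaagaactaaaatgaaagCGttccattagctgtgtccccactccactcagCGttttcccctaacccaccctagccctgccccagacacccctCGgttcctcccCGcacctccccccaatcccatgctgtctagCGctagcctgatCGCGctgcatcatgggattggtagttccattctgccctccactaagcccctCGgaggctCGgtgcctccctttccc
Alox5: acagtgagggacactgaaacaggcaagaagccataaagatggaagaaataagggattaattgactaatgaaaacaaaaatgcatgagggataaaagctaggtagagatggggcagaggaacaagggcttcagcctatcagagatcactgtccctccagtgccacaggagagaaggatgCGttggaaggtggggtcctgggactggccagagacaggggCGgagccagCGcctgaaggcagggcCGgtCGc
Alox12: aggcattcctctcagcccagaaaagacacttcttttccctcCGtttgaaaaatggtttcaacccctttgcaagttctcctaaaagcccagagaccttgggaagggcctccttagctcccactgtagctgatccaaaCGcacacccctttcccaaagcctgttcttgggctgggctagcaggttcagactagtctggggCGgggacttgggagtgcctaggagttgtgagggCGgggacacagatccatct
Lta4h had 11 CG dinucleotides in its 250 bases, Alox5 5 and Alox12 4, and Mboat7 had 6 in the bases shown and 19 over the full window. Over all 32851 promoters of the table the median was 6, with 2 or fewer in the lowest quartile and 16 or more in the highest. The other starts with H3K4me3 had 29 (Lpcat3), 25 (Acsl4), 12 (Pla2g6), and 3 and 1 (the upstream and downstream starts of Pla2g4a), so H3K4me3 start peaks lay at CG-rich and at CG-poor starts. A GC box (GGGCGG, both strands), held by 32.7% of all promoters, was found at Mboat7, Alox5 and Alox12 of the 4 shown. A CCAAT box (CCAAT, both strands; 33.8% of promoters) was found at Lta4h. TATAAA (both strands, 12.4% of promoters) was found in the window of the downstream start of Pla2g4a, where the H3K4me3 peak was the stronger of that gene's pair. It lay on the strand opposite to transcription. TGACGTCA (1.55% of promoters), GATAAG (6.55%) and CACGTG (6.02%) were in none of the 9 windows of the 8 genes that the table holds. Alox5ap and Alox15 have no row in that table, so their strand was not used and either gene end within 1 kb of a peak was taken.

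Pla2g4a encodes cytosolic phospholipase A2 alpha, the main enzyme that frees arachidonate on a calcium signal. The gene (chr1:149829618-149961290, minus strand) has 2 annotated starts 38.851 kb apart, and both carried H3K4me3 and H3K27ac. At the downstream start (chr1:149918918-149923864) the H3K4me3 score was 0.901 and 0.807 in vehicle and 1.31 and 1.00 in AA. At the upstream start (chr1:149959827-149962221) it was 0.474 and 0.431 in vehicle and 0.630 and 0.593 in AA. The downstream start had the higher score in all 4 libraries, and at both starts the AA libraries lay above the vehicle libraries. Neither was called: the change was 0.41 ± 0.15 downstream (limma adjusted p = 0.0977) and 0.42 ± 0.21 upstream (limma adjusted p = 0.308). The downstream change was 0.60 without AA replicate 2, 0.22 without AA replicate 1 and 0.14 after quantile normalization. The upstream change was 0.46 and 0.37 without these libraries. H3K27ac at the downstream start was 0.308 and 0.332 in vehicle and 0.397 and 0.363 in AA, and at the upstream start 0.304 and 0.301 against 0.291 and 0.321, where the groups overlapped. A further 5 H3K27ac peaks lay inside the gene, and at one of them, chr1:149915754-149918287, the score was 0.0665 and 0.0644 in vehicle and 0.195 and 0.195 in AA. Its change of 0.97 was the largest for H3K27ac in the 10 genes and did not pass the test (limma adjusted p = 0.566).

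Pla2g6 encodes the calcium-independent phospholipase A2 beta, which takes part in membrane remodelling. Its start peak of H3K4me3 (chr15:79326184-79329431) scored 0.681 and 0.720 in vehicle and 0.876 and 0.593 in AA. The 2 AA libraries lay on either side of the vehicle pair, and the change was 0.04 ± 0.18 (limma adjusted p = 0.918). The strongest H3K4me3 peak of its span was at the other end of the gene (chr15:79280105-79287992) and also held an end of the neighbour Baiap2l2. It scored 1.05 and 1.08 in vehicle and 1.53 and 1.25 in AA, a change of 0.37 ± 0.13 (limma adjusted p = 0.088). H3K27ac at the start was 0.398 and 0.359 in vehicle and 0.490 and 0.431 in AA, a change of 0.24 ± 0.15 (limma adjusted p = 0.741).

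**Figure D2:**
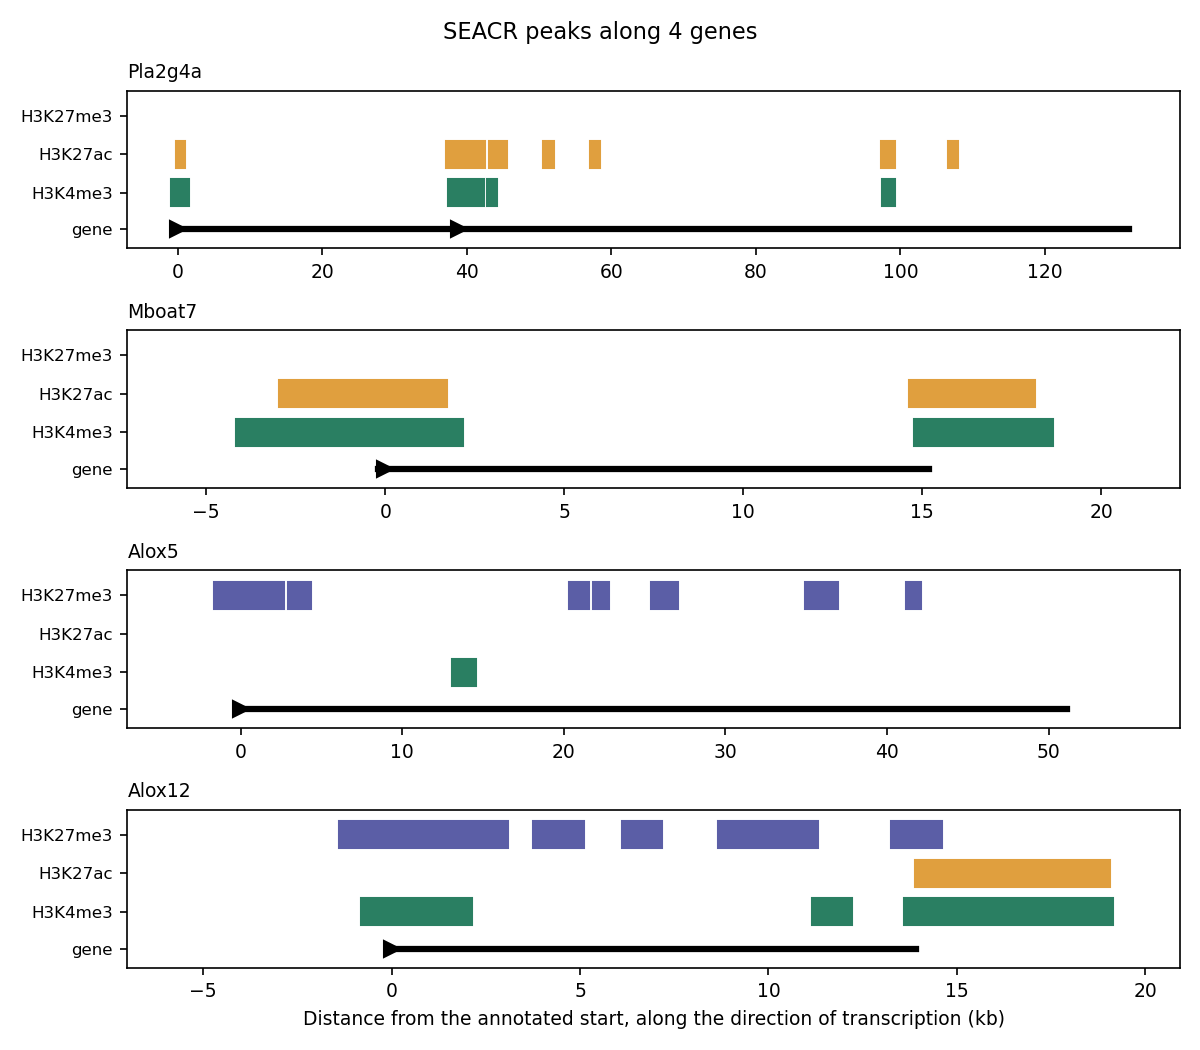
SEACR peaks (boxes) of H3K4me3, H3K27ac and H3K27me3 along Pla2g4a, Mboat7, Alox5 and Alox12, with the gene as a line and annotated starts as arrowheads, by distance from the start in the direction of transcription (kb). H3K27me3 boxes lie along Alox5 and Alox12 and are missing at Pla2g4a and Mboat7, where H3K4me3 and H3K27ac cover the starts.

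Acsl4 makes the acyl-CoA synthetase that prefers arachidonate and is known for its part in ferroptosis. The gene lies on the X chromosome (chrX:142317993-142390802, minus strand). Its H3K4me3 start peak (chrX:142388003-142391672) scored 0.346 and 0.348 in vehicle and 0.529 and 0.464 in AA, above both vehicle libraries, with a change of 0.48 ± 0.24 (limma adjusted p = 0.299). It stood at the 33.6th percentile of H3K4me3 gene-start peaks, so it was a weak one. The change was 0.57 without AA replicate 2 and 0.39 without AA replicate 1. H3K27ac at the start was low, 0.140 and 0.234 in vehicle and 0.152 and 0.104 in AA, at the 7.53rd percentile of H3K27ac start peaks. An H3K27me3 peak also covered the start, with 0.0858 and 0.143 in vehicle and 0.0805 and 0.0938 in AA, where the groups overlapped. The 25 H3K27me3 peaks of the gene changed by -1.14 to 0.98. Both AA libraries lay above both vehicle libraries at 6, beside 26.3% of all H3K27me3 peaks, and below at 4, beside 13.4%. The strongest of the 25 (chrX:142362693-142363263) scored 0.0990 and 0.158 in vehicle and 0.329 and 0.203 in AA. Its change of 0.88 ± 0.23 came nearest to the threshold of all H3K27me3 peaks in the 10 genes (limma adjusted p = 0.0543), on 1.70 to 3.49 fragments per base. With the pseudocount halved it passed (limma adjusted p = 0.0331).

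Lpcat3 encodes the lysophosphatidylcholine acyltransferase that places polyunsaturated acids, arachidonate among them, into phospholipids, and it has a known role in lipid uptake by the intestine. It was the gene most covered by active marks, with 57.4% of its span in H3K4me3 peaks and 75.2% in H3K27ac peaks. At the start (chr6:124661976-124667388) H3K4me3 was 0.832 and 0.695 in vehicle and 0.878 and 0.891 in AA, a change of 0.21 ± 0.16 (limma adjusted p = 0.541). Along the gene body 3 H3K4me3 peaks went the other way, with both AA libraries below both vehicle libraries. The strongest of them, chr6:124681652-124687253, had 0.407 and 0.471 in vehicle and 0.348 and 0.286 in AA. None of the 3 was called (limma adjusted p from 0.391 to 0.759). Falls were common in this mark: over all H3K4me3 peaks 39.4% had a change above 0, and the median change was -0.19. A short peak near the 3′ end (chr6:124699940-124700799) scored 0.104 and 0.170 in vehicle and 0.247 and 0.376 in AA, the largest H3K4me3 change of the 10 genes at 1.06 ± 0.36 (limma adjusted p = 0.0769). H3K27ac at the start was 0.390 and 0.310 in vehicle and 0.427 and 0.448 in AA. The strongest H3K27ac peak lay inside the gene (chr6:124692739-124695440) and scored 0.414 and 0.357 in vehicle and 0.539 and 0.468 in AA, a change of 0.33 ± 0.15 (limma adjusted p = 0.542). The lone H3K27me3 peak of the gene held 0.404 to 2.36 fragments per base and was weaker than most of its mark, at the 19.5th percentile.

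Mboat7 encodes the acyltransferase that places arachidonate into phosphatidylinositol. Its H3K4me3 start peak (chr7:3690816-3697152) was the one peak of the 10 genes called in any mark, and it was higher in AA. The score was 0.941 and 0.825 in vehicle and 1.20 and 1.25 in AA, or 0.883 ± 0.0820 against 1.23 ± 0.0359 (SD, n = 2 libraries each). Both AA libraries lay above both vehicle libraries, and the change was 0.47 ± 0.14 (limma adjusted p = 0.0434). The peak also holds the start of Tsen34, a subunit of the tRNA splicing endonuclease, 0.101 kb away on the other strand, and the score cannot be divided between them. The call was lost without vehicle replicate 1 (0.56, limma adjusted p = 0.839), without vehicle replicate 2 (0.37, limma adjusted p = 0.884), after quantile normalization (0.18, limma adjusted p = 0.275) and in limma without trend and robust fitting (0.47, limma adjusted p = 0.542). The change was 0.44 without AA replicate 2 and 0.49 without AA replicate 1. A fit without 1 library takes the spread from the pair that is left and assumes that the lone library varies like it. MACS2, which calls narrower peaks, had a peak over both starts (chr7:3691851-3693847) with 1.59 and 1.304 in vehicle and 2.14 and 2.16 in AA and an adjusted p of 0.0523 in limma.

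H3K27ac near the same start differed between the peak callers, whose peaks cover different stretches. In the SEACR peak it was 0.391 and 0.409 in vehicle and 0.379 and 0.423 in AA, overlapping between the groups, with a change of 0.0027 ± 0.16 (limma adjusted p = 0.997). A short MACS2 peak beside it (chr7:3693184-3693560) held an end of the Mboat7 span but neither the start used here nor that of Tsen34. There H3K27ac was 0.682 and 0.602 in vehicle and 0.788 and 1.06 in AA, higher in both AA libraries. The change was 0.38 ± 0.30 (limma adjusted p = 0.696). At the other end of Mboat7, a second H3K4me3 peak (chr7:3674335-3678200) held the start of the neighbour Tmc4 and scored 0.827 and 0.813 in vehicle and 1.20 and 1.07 in AA. Its change of 0.46 ± 0.15 was close to that at the start and missed the threshold (limma adjusted p = 0.0632). The MACS2 peak at that end was called, with a change of 0.56 ± 0.15 (limma adjusted p = 0.0237). It held the start of Tmc4 and lay in the flank, outside the Mboat7 gene itself.

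Alox5 makes 5-lipoxygenase, the first enzyme of leukotriene synthesis. No H3K4me3 peak lay at its start and no H3K27ac peak in its span. One H3K4me3 peak inside the gene scored 0.0281 and 0.115 in vehicle and 0.0115 and 0.0571 in AA, at the 3.09th percentile of its mark. H3K27me3 covered the start in a peak of 4.335 kb (chr6:116458482-116462816), over the whole of the sequence shown above. That peak scored 0.181 and 0.171 in vehicle and 0.169 and 0.129 in AA, all AA values below the vehicle values, with a change of -0.21 ± 0.27 (limma adjusted p = 0.855). The other 6 H3K27me3 peaks of the gene had changes above 0, up to 0.61, and none was called.

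Alox5ap encodes FLAP, the membrane protein that presents arachidonate to 5-lipoxygenase. It was the gene without any H3K4me3 peak. A weak H3K27ac peak inside it (chr5:149282396-149284562) scored 0.123 and 0.185 in vehicle and 0.0595 and 0.0841 in AA, lower in both AA libraries, with a change of -0.65 ± 0.49 (limma adjusted p = 0.782). Its strongest H3K27me3 peak lay at a gene end (chr5:149283956-149288565) and scored 0.130 and 0.186 in vehicle and 0.166 and 0.240 in AA, where the groups overlapped (0.30 ± 0.24, limma adjusted p = 0.737).

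Alox12 makes platelet-type 12-lipoxygenase. Its start carried H3K4me3 and H3K27me3 together and no H3K27ac peak. H3K4me3 (chr11:70253248-70256177) was 0.236 and 0.216 in vehicle and 0.235 and 0.209 in AA, overlapping, with a change of -0.02 ± 0.34 (limma adjusted p = 0.977). That is at the 20.0th percentile of H3K4me3 start peaks. H3K27me3 (chr11:70252279-70256766) was 0.184 and 0.207 in vehicle and 0.270 and 0.281 in AA. Both AA libraries lay above both vehicle libraries, the change was 0.44 ± 0.16, and it did not pass the test (limma adjusted p = 0.261). This peak was at the 88.0th percentile of H3K27me3 start peaks, and at the 98.5th percentile of all H3K27me3 peaks. The strongest H3K4me3 peak in the extended span of Alox12, at its 3′ end (chr11:70236226-70241787), holds the starts of 0610010K14Rik and Gm40191 and was not taken as a mark of Alox12. It scored 1.08 and 0.948 in vehicle and 1.42 and 1.29 in AA (0.41 ± 0.13, limma adjusted p = 0.0629).

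Alox15 makes leukocyte-type 12/15-lipoxygenase. It held 8 H3K27me3 peaks, among them the longest of the 10 genes, at 11.1 kb (chr11:70345258-70356347), with 0.220 and 0.197 in vehicle and 0.229 and 0.234 in AA. The strongest (chr11:70370826-70379167) had 0.216 and 0.228 in vehicle and 0.264 and 0.267 in AA, at the 98.7th percentile of the mark. Both had the AA libraries above the vehicle libraries by little, with changes of 0.13 ± 0.17 (limma adjusted p = 0.847) and 0.23 ± 0.15 (limma adjusted p = 0.666). An H3K4me3 peak within the longest H3K27me3 stretch (chr11:70347816-70349306) scored 0.260 and 0.308 in vehicle and 0.297 and 0.254 in AA, with overlapping groups. H3K27ac was present in 1 weak peak, at the 19.2nd percentile of its mark.

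Lta4h makes leukotriene A4 hydrolase, which forms leukotriene B4 from the product of 5-lipoxygenase and is made by many cell types. Its start had the marks of an active gene. Of Alox5 and Alox5ap, which act before it, Alox5 had neither H3K4me3 nor H3K27ac at its start. Alox5ap, whose start was not known, had no H3K4me3 peak. H3K4me3 at the start (chr10:93452586-93456664, which also holds the start of LOC115487419) was 1.35 and 1.25 in vehicle and 1.63 and 1.55 in AA. This was the 99.6th percentile of H3K4me3 start peaks. Both AA libraries lay above both vehicle libraries, with a change of 0.28 ± 0.12 (limma adjusted p = 0.180). The change was 0.32 without AA replicate 2 and 0.25 without AA replicate 1, and it turned to -0.06 after quantile normalization. H3K27ac was 0.413 and 0.360 in vehicle and 0.490 and 0.512 in AA, a change of 0.32 ± 0.15 (limma adjusted p = 0.566).

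**Figure D3:**
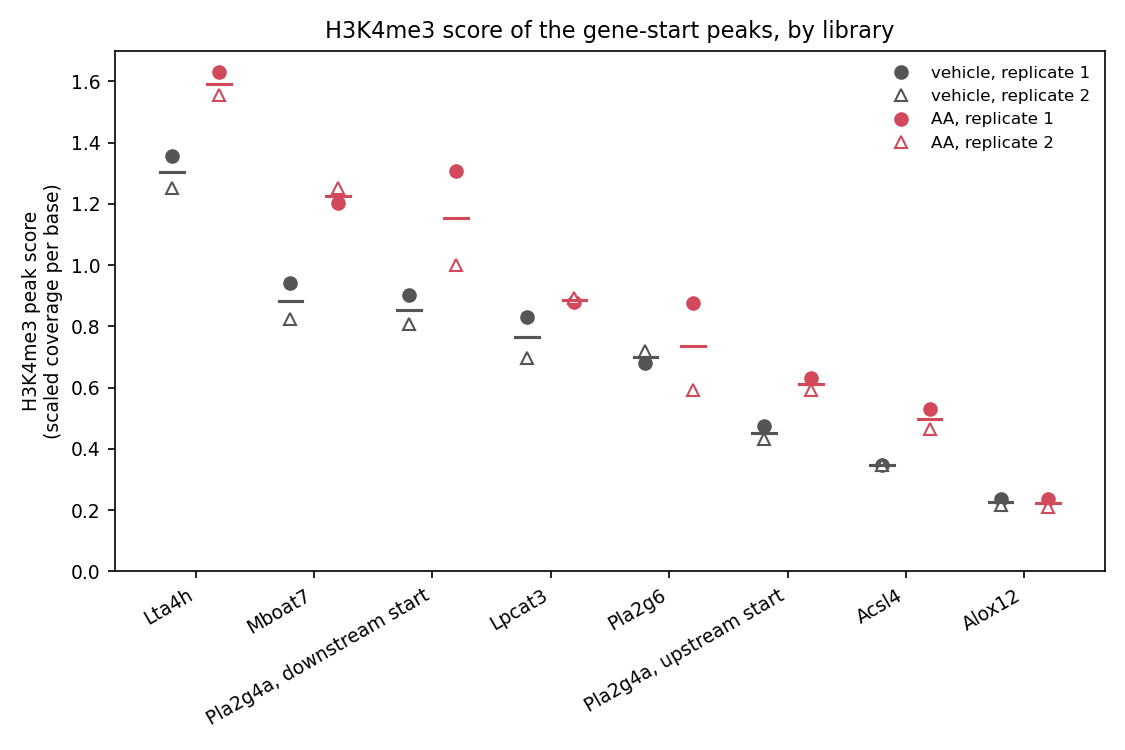
H3K4me3 score (scaled coverage per base) of the start peaks of 7 genes, in each library (vehicle in grey, AA in red; bars are the means of 2 libraries). The AA libraries lie above the vehicle libraries at 6 of the 8 peaks, and the groups overlap at Pla2g6 and Alox12.

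Counted over the 10 genes, AA against vehicle gave few calls. Of the 25 H3K4me3 peaks 1 was called, beside 2.92% of all H3K4me3 peaks, and 9 had an unadjusted p under 0.05 in limma, beside 16.2% of all peaks. Changes above 0 were found at 13 of the 25, and their median was 0.04 beside -0.19 over all peaks. Of 23 MACS2 peaks of H3K4me3 1 was called, beside 6.3% of all of them. The called one lay in the 1 kb flank of Mboat7, outside the gene itself, over the start of Tmc4. In the fits with 1 library left out, 8 of the 25 were called without AA replicate 2, all higher, beside 15.2% of all peaks. Without AA replicate 1 it was 5 higher and 1 lower, beside 14.5%. Without either vehicle library none was called, where 0.0615% and 0.0547% of all peaks were. A count of 1 in 25 is close to the share over all peaks.

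The start peaks of H3K4me3 were mostly higher in AA, and so were those of other genes. At 6 of the 8 start peaks both AA libraries lay above both vehicle libraries, and the same held for 44.2% of 12473 H3K4me3 gene-start peaks. The median change of the 8 was 0.35, and 0.16 over all gene-start peaks, of which 6.06% were called. The change followed the level of the peak: over quartiles of the mean score, which includes the AA libraries, the median change of gene-start peaks was -0.40, 0.07, 0.21 and 0.30. Lta4h (0.28), Mboat7 (0.47) and the downstream start of Pla2g4a (0.41) belong to the highest quartile, where 96.5% of peaks had a change above 0 and 13.8% were called. Lpcat3 (0.21) and Pla2g6 (0.04) belong to the next. Acsl4 (0.48) and the upstream start of Pla2g4a (0.42) were in the second quartile, whose median was 0.07. Alox12 (-0.02) was in the lowest. With 2 libraries against 2, an exact permutation test of a single peak cannot go below p = 0.333.

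No H3K27ac peak of the 10 genes was called among 27, beside 0.2% of all H3K27ac peaks, and 3 had an unadjusted p under 0.05 in limma, beside 7.71%. The limma fit without trend and robust also called 0 of them. Their changes ran from -0.65 to 0.97 with a median of 0.18, beside 0.11 over all peaks. At the 7 start peaks, 4 had both AA libraries above both vehicle libraries, beside 39.4% of gene-start peaks of this mark. MACS2 had 11 H3K27ac peaks in 5 of the genes, none called beside 0% of all of them, with 0 at an unadjusted p under 0.05.

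For H3K27me3, 0 of 50 peaks were called by limma, beside 0.545% of all peaks, and 5 had an unadjusted p under 0.05, beside 9.39%. The fit without trend and robust also called 0. Both AA libraries lay above both vehicle libraries at 15 of the 50, beside 26.3% of all peaks, and below at 5, beside 13.4%. The median change was 0.19 in these genes and 0.12 over all peaks. MACS2 placed no H3K27me3 peak in the 10 genes, and 0.547% of its 1828 peaks were called. In the 24 peaks of the lipoxygenase genes and Alox5ap the median change was 0.21, and in the 26 of the other genes it was 0.18.

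**Figure D4:**
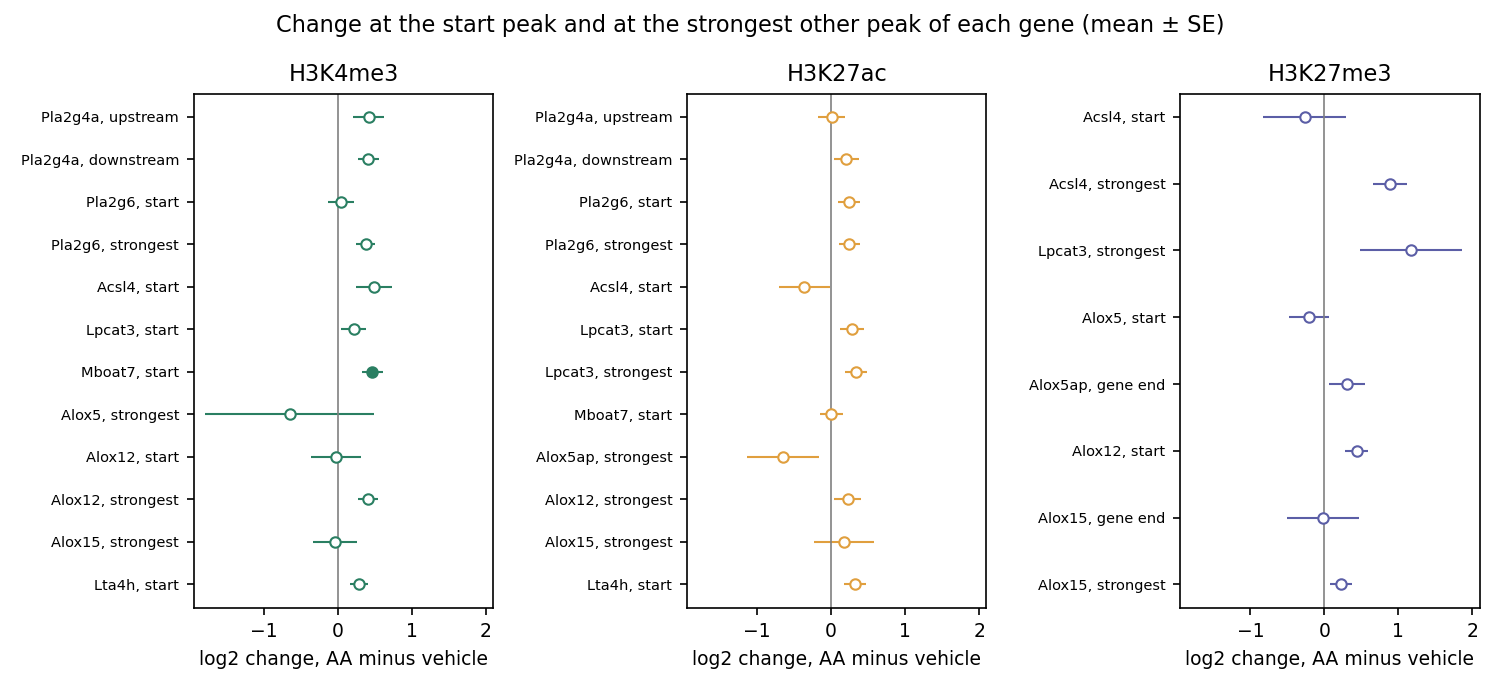
Change (AA minus vehicle, log2 scale, point and SE from limma over 4 libraries a mark) at the start peak, or a gene end where no start was known, and at the strongest other peak of each gene; the filled point is called at an adjusted p under 0.05. The Mboat7 start in H3K4me3 is the one called, and the widest errors belong to weak peaks such as the one inside Alox5.

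The wider pathway gave a few calls outside the 10 genes. A list of 66 symbols held other phospholipases A2 and lipid hydrolases, other acyl-CoA synthetases and acyltransferases, other lipoxygenase and leukotriene genes, and the receptors of their products, and 63 matched. Of these, 44 had an H3K4me3 peak at a start or gene end, 2 of them called higher and 2 called lower, with a median change of 0.12, beside 6.06% called and a median of 0.16 over all H3K4me3 gene-start peaks. Pla2g7, which inactivates platelet-activating factor, fell: its start scored 0.543 and 0.452 in vehicle and 0.158 and 0.150 in AA, a change of -1.54 ± 0.30 (limma adjusted p = 0.000145). Pla2g2a, a secreted phospholipase of Paneth cells, fell at a gene end from 0.602 and 0.637 to 0.391 and 0.299 (-0.81 ± 0.23, limma adjusted p = 0.0237). For both genes the AA libraries lay below the vehicle libraries.

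Mboat1, an acyltransferase related to Mboat7, rose at its start from 0.661 and 0.729 in vehicle to 1.26 and 1.02 in AA (0.69 ± 0.16, limma adjusted p = 0.00224), and it was called in the MACS2 peaks as well (0.65, limma adjusted p = 0.0233). Ggt1, which can cleave leukotriene C4, rose from 0.0574 and 0.119 to 0.301 and 0.329 (1.64 ± 0.41, limma adjusted p = 0.00708) at a weak peak. Ggt1 had no MACS2 peak there. These 4 calls were lost in limma without trend and robust fitting and when either vehicle library was left out (limma adjusted p from 0.315 to 0.884). Pla2g2a was also lost after centring (-0.60, limma adjusted p = 0.0731).

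In H3K27me3, 28 genes of the wider list had a peak at a start or gene end, with 2 called, both higher, beside 2.6% of all H3K27me3 gene-start peaks called. Alox8, an 8-lipoxygenase of skin, rose from 0.312 and 0.292 to 0.414 and 0.420 (0.43 ± 0.09, limma adjusted p = 0.00395). Mboat2 rose by 0.80 ± 0.19 (limma adjusted p = 0.0192). Both were lost after centring (limma adjusted p = 0.463 and 0.369) and without any 1 of the 4 libraries, and the overlapping MACS2 peak at Alox8 had a change of -0.22. Of the 9 matched receptors, 7 had an H3K27me3 peak and 2 an H3K4me3 peak. In H3K27ac 30 genes had a peak and 0 were called by limma.

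Markers of the cell types that could carry these genes were read in the same way. The labelled tissue matched its markers, with H3K4me3 peaks at a start (8) or at a gene end where no start was known (3) for 11 of 11 epithelial markers, and a median score of 0.991. For leukocytes 3 of 12 had one: Cd68 at a start, in a peak that holds other starts, and Spi1 and Cd14 at a gene end. The other 9 had none, among them Ptprc, which defines leukocytes, and Itgam, Adgre1 and Cd3e. The summed H3K4me3 score of the leukocyte list was 1.63 and 1.72 in vehicle and 2.34 and 1.89 in AA. Cd14 (0.60 ± 0.15, limma adjusted p = 0.00798) was called higher, beside 6.06% of all H3K4me3 gene-start peaks called. Cd68 (0.18) and Spi1 (-0.22) were not called. The epithelial list also summed higher in AA, with 9.96 and 9.39 in vehicle and 12.3 and 10.6 in AA. The summed H3K27me3 score of the leukocyte list, over 5 genes, was 0.643 and 0.579 in vehicle and 1.09 and 1.03 in AA. Lyz2 was called higher in that mark (1.48 ± 0.31, limma adjusted p = 0.00551). For tuft cells 4 of 11 markers had an H3K4me3 peak, with a summed score of 0.789 and 0.861 in vehicle and 0.727 and 0.343 in AA, and none was called. Trpm5 (0.18) changed upward. The mean scores of these 4 peaks lay in the range of the lowest quartile of H3K4me3 gene-start peaks. In that quartile the median change was -0.40, with 23.2% above 0. An H3K27me3 peak was found at 7 of 11 tuft markers. Their summed H3K27me3 score was 1.04 and 1.14 in vehicle and 1.32 and 1.37 in AA, with Pou2f3 called higher (1.07 ± 0.28, limma adjusted p = 0.0447). Il25 (-0.46) and Ptgs1 (-0.12) went the other way. The fibroblast list had 4 of 9, with a summed H3K4me3 score of 1.31 and 1.53 in vehicle and 1.20 and 0.858 in AA, and none was called. Their mean scores lay in the range of the lowest and second quartiles of H3K4me3 gene-start peaks, with median changes of -0.40 and 0.07. In H3K27me3 the fibroblast list summed to 1.03 and 1.17 in vehicle and 1.64 and 1.47 in AA over 6 genes, with Vim called higher (0.51 ± 0.13, limma adjusted p = 0.0403). Over all H3K27me3 gene-start peaks 2.6% were called, 62.9% had a change above 0, and the median change was 0.14. Over all peaks of that mark, centring took the calls from 574 to 79. Epithelial markers summed in H3K27me3 to 0.108 and 0.496 in vehicle and 0.274 and 0.122 in AA, over 3 genes. The part of these cell types in the values of the 10 genes was not tested.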

How the data were processed

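CUT&RUN peak tables of 3 marks were used, with 2 vehicle and 2 AA libraries each, and no column of another sample was left over (0). The authors deposited 1 score per peak and library, a signal in scaled coverage per base, for SEACR and for MACS2 peaks on mm10, per the submitters' processing notes. Their versions, the aligner and the kind of scaling: not given in the sources used here. Multiplied by its peak's length, a score below 1000 steps came out as a whole number of a library's own step, within 0.1 step, for at least 99.99% of values; fragments per base are the score over that step. Control in the table was read as vehicle, the only other group in the labels.

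Peaks were tested by limma (version 3.58.1, R 4.3.3) with trend and robust moderation, Benjamini-Hochberg adjustment and a threshold of 0.05, on log2(score + pseudocount) over all SEACR peaks of a mark, with the deposited scaling. The pseudocount was the 5th percentile of positive values: 0.0253 (H3K4me3), 0.0693 (H3K27ac) and 0.0329 (H3K27me3). It makes changes of weak peaks too small. The fit was tested on simulated data, where for H3K4me3 and H3K27ac more calls were false than the threshold states. Named peaks are each gene's start peak (highest mean within 1 kb of an annotated start), the strongest other peak and every called peak; of the wider list, called genes are named. A few further peaks were named after their values were seen: the gene-body and 3′ peaks of Lpcat3, the internal H3K27ac peak of Pla2g4a, the far-end peak of Mboat7, the MACS2 peak over its start and the longest H3K27me3 peak of Alox15. Genes, lists and rules were chosen with earlier results of these data known. Starts, strands and sequences came from RefSeq tables on GRCm38.p6. MACS2 peaks, scaling, pseudocount, filter, moderation, threshold, span, replicate block and each left-out library were tried as alternatives.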

Additional observations from a re-analysis of the deposited data

How the results depend on the processing

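The called H3K4me3 peaks of the 10 genes, 1 as reported, numbered 9 after centring (beside 10.4% of all peaks), 2 with stronger peaks only (beside 6.24%), 2 with the span extended by 5 kb, 0 without trend and robust and 0 at an adjusted p of 0.01, and 0 to 8 when 1 library was left out. MACS2 peaks, quantile normalization, both other pseudocounts and no span extension gave 1. Among MACS2 peaks it was the one over the start of Tmc4, beside Mboat7. After quantile normalization it was not the Mboat7 start peak either, which had lost its call. H3K27ac gave 0 under every alternative run, and H3K27me3 gave 0 except with the pseudocount halved (1) and with the replicate block (1). The labels do not say whether same-numbered libraries are paired. Their deviations from the group means correlated at -0.0023 to 0.0085 over all peaks, most of them weak, which cannot settle it. With the replicate block, 5 H3K4me3 peaks (4.31% of all peaks) and 1 H3K27me3 peak were called, the latter in Acsl4 (limma adjusted p = 0.0248).

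Over 38 named peaks, 434 values under alternatives held 27 that changed sign. Centring gave -0.06 for H3K27ac at the upstream Pla2g4a start, -0.07 for H3K27ac at Mboat7, 0.19 for H3K4me3 at the Alox12 start and 0.17 for H3K4me3 in Alox15. Quantile normalization gave, in that order, -0.11, -0.15, 0.09 and 0.06, and for H3K4me3 -0.13 at Pla2g6, -0.01 at Lpcat3 and -0.06 at Lta4h, and -0.00083 for the strongest H3K27me3 peak of Alox15. MACS2 gave 0.20 for H3K4me3 in Alox15 and -0.22 for H3K27me3 at Alox8. Leaving out 1 library gave -0.05 to 0.07 (H3K27ac, upstream Pla2g4a), -0.23 to 0.31 (H3K4me3, Pla2g6), -0.55 to 0.01 (H3K27me3, Acsl4 start), -0.06 to 0.07 (H3K27ac, Mboat7), -1.35 to 0.04 (H3K4me3, Alox5), -0.10 to 0.05 (H3K4me3, Alox12), and for Alox15 -0.15 to 0.07 (H3K4me3), -0.04 to 0.38 (H3K27ac) and -0.52 to 0.47 (H3K27me3 gene end). The cause of these shifts was not tested. Weak peaks rest on few fragments: the median H3K27me3 peak had 1.19 to 1.85 per base, and the median H3K4me3 peak of the AA libraries 1.37 and 1.46.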
